A study of Homo sapiens with 8 samples.

Results

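Intervals of the SUM159 genome that carried a deposited peak of both trimethylated lysine 9 (H3K9me3) and trimethylated lysine 4 (H3K4me3) of histone H3 were examined. They were chosen by the peak lists themselves. A base of chromosomes 1 to 22 counted when a peak of all 8 libraries covered it, touching bases were merged without joining gaps, and intervals of at least 1 kb were kept. This left 1802 intervals, called double-marked here, out of 17454 intervals of any length. They held 2.92 Mb, which is 0.101% of the autosomes. A peak in every library was therefore the condition of membership and is not a result.

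SUM159 is an established line of triple-negative breast cancer with mesenchymal features. All cells carried the lentiviral vector pLV-KRAB, which expresses dCas9-KRAB, a Cas9 that binds but does not cut DNA, fused to the KRAB repressor domain. All gRNA cells also received the 4 guides against the ZEB1 promoter, and No gRNA cells the empty vector. Native ChIP-seq, which pulls down nucleosomes without cross-linking, was done with 2 biological replicates of each mark and condition. These were transduced populations of 1 cell line. The names of 2 of the 4 H3K4me3 files give the other condition than the sample labels do, so each library is called here by its label. They are the libraries labelled All gRNA H3K4me3 replicate 2 and No gRNA H3K4me3 replicate 1. H3K4me3 at ZEB1, the targeted gene, differed between libraries of one label and not between libraries of one file name. Peaks covered 100% of the 2 kb around its start in the libraries labelled All gRNA replicate 2 and No gRNA replicate 2, and 0% in those labelled replicate 1. Every H3K4me3 difference between conditions below is therefore a difference between labels. The library labelled No gRNA H3K4me3 replicate 1 also stood apart in its values. Without it the same rule gave 3936 intervals, and without another of the H3K4me3 libraries 2883 to 3261.

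H3K9me3 is the mark of constitutive heterochromatin and of silenced genes. SETDB1 lays it down where the corepressor TRIM28 (KAP1) is bound by KRAB zinc finger proteins. It covers pericentromeric repeats, transposons and the clusters of zinc finger (ZNF) genes on chromosome 19. H3K4me3 marks the start sites of active genes. The marks are usually apart, and imprinted control regions, where one parental copy is silent and the other active, are the textbook place where both are found. In a population of cells, both marks on one nucleosome, on the maternal and paternal allele and in different cells cannot be told apart.

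The lists were permissive. The weakest peak of each list had a p-value between 0.0994 and 0.0999, and the lists held between 264055 and 479723 autosomal peaks. Between 0.635% and 9.13% of these had a q-value of 0.05 or lower, and the peaks of a list covered between 21.2% and 31.8% of the autosomes. Sequencing depth is unknown, since the files hold peaks and no reads, and DNA copy number was not measured, so no level per copy can be given.

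Reference sequences of the kinds of interval described here are printed from hg38. The SNURF window (chr15:24955691-24955890, plus strand) is the stretch of its interval with the most CpG sites outside annotated UTRs, 20 in 200 bases. It is shown as the imprinted member, with CpG in capitals.
SNURF: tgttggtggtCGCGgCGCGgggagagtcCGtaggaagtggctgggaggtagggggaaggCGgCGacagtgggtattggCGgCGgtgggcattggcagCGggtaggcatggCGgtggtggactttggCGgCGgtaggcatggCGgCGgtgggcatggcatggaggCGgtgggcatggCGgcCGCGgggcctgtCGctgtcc
The IRX2-DT window (chr5:2755087-2755286, plus strand) is the same kind of stretch from the interval whose weakest library had the lowest q-value, and held 35 CpG sites.
IRX2-DT: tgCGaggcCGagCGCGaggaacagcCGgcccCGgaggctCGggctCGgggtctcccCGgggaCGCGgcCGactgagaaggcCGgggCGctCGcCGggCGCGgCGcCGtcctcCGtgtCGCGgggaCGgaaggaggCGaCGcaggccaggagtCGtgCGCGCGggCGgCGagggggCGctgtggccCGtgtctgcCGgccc
The ZNF79 window (chr9:127444315-127444514, plus strand) comes from the interval at a ZNF 3' end that held the most copies of the DNA coding for the linker between zinc fingers, 9 in the interval. Capitals mark the letters ACNGGNGANAANCC, which occur 2 times here.
ZNF79: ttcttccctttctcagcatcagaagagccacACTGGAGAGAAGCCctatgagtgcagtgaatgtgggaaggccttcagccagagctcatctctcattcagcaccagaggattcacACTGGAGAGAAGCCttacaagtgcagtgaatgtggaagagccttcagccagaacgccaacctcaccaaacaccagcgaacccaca
Consecutive tandem units of 171 bases (chr19:25613990-25614160 and chr19:25614161-25614331, plus strand) come from a member in the centromeric region of chromosome 19, chr19:25613676-25615029. Capitals mark the CENP-B box, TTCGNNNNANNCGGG, the site in alpha satellite DNA that the centromere protein CENP-B binds. The first unit holds the box and the second does not, and the units are identical at 107 of 171 bases (62.6%).
first unit: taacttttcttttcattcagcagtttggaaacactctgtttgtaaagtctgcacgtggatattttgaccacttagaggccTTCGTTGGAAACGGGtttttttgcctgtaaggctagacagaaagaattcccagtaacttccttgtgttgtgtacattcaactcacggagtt
second unit: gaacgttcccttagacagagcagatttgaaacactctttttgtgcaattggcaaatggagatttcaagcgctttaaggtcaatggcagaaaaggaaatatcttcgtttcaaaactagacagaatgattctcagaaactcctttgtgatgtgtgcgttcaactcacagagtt

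Over the genome the marks overlapped less than their extents alone would give. Bases in all 4 H3K9me3 lists made up 11.8% of the autosomes and bases in all 4 H3K4me3 lists 6.37%. The product of these shares is 0.753%, or 21.6 Mb, whereas 0.275%, or 7.90 Mb, lay in all 8 lists. This was 2.32% of the 4-library H3K9me3 bases and 4.31% of the 4-library H3K4me3 bases. When the H3K4me3 intervals were moved by 1 Mb along each chromosome, 4719 intervals of 1 kb or longer were formed, 2.62 times the 1802 seen without a move. Moves of 1 Mb the other way, 5 Mb and 100 kb gave 4785, 7063 and 2257 intervals. These moves describe how the marks lie and carry no test. Among peaks with a q-value of 0.05 or lower the direction turned. Then 38 intervals were double-marked, and a move of 1 Mb gave 0.526 times as many.

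Double-marked intervals were short pieces of wider peaks. Their median length was 1354 bases, 339 were 2 kb or longer and 18 were 5 kb or longer. The median width of the peaks behind them was 7426 bases for H3K9me3 and 4487 bases for H3K4me3, and the H3K9me3 peak was the wider one at 1121 intervals (62.2%). Neighbouring intervals could share a peak, and so a value. In each H3K9me3 list between 1442 and 1462 peaks lay behind the 1802 intervals. The 3 shortest members measured 1000 bases, and 3 intervals of 999 bases lay just outside the limit.

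The intervals were gathered in a few places. Chromosome 19 held 285 (15.8%), although it makes up 2.04% of the autosomes, and chromosome 5 held 283. The 10 fullest windows of 5 Mb held 615 intervals (34.1%), while 181 of 587 windows held none and the median window held 1. The 3 fullest windows were on chromosomes 5, 1 and 19, with 104, 102 and 92 intervals, and all overlap a centromeric region. The next were at 8q24 with 77 and at the end of the short arm of chromosome 5 (distal 5p) with 54. Chromosome 19 also led when the H3K4me3 intervals were moved by 1 Mb, with 574 intervals.

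Sequence and place split the intervals into classes, counted in this order: a CENP-B box, 8q24, distal 5p, a ZNF gene (body, start or 3' end), the start of another protein-coding gene, and the rest. The classes held 466 (25.9%), 77, 54, 196 (10.9%), 27 and 982 intervals. The central 1 kb of 25.9% of double-marked intervals held a CENP-B box on either strand. It did so in 3.70% of H3K9me3-only intervals, 0.0959% of H3K4me3-only intervals and 1.92% of 1 kb windows set every 100 kb along the autosomes. H3K9me3-only and H3K4me3-only intervals are those of 1 kb or longer covered in all 4 libraries of a mark that touch no double-marked interval, 66094 and 47981 in number. They can still carry the other mark in fewer libraries or over shorter stretches. A wide H3K9me3 interval can hold several double-marked intervals, and it is then left out of the H3K9me3-only set. The contrast with H3K9me3-only intervals can in part follow from this, and how much was not tested. The telomere repeat GGGTTAGGG, as another repeat motif, was held by 0.666% of double-marked intervals and 0.650% of the genome windows.

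Intervals with a CENP-B box were the largest class with a name. Of the 466, 102 lay on chromosome 1, 101 on chromosome 5, 93 on chromosome 19 and 49 on chromosome 16. H3K9me3 was strong here. A peak at a q-value of 0.05 or lower was present in all 4 H3K9me3 lists at 462 intervals (99.1%), and the H3K9me3 peaks had a median width of 59721 and 52854 (All gRNA) and 50053 and 51972 bases (No gRNA). The median H3K9me3 fold enrichment was 2.18 and 2.20 (All gRNA) and 2.39 and 2.30 (No gRNA). H3K4me3 was weak, with such a peak in any of the 4 lists at 18 intervals (3.86%), or at 11 without All gRNA replicate 1. The median H3K4me3 fold enrichment of 1.94 and 1.87 (All gRNA) and 1.83 and 1.85 (No gRNA) came from peaks of 2749 to 3907 bases. Alpha satellite is present in very many copies, and the part of read placement among them in these values was not tested.

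**Figure D1:**
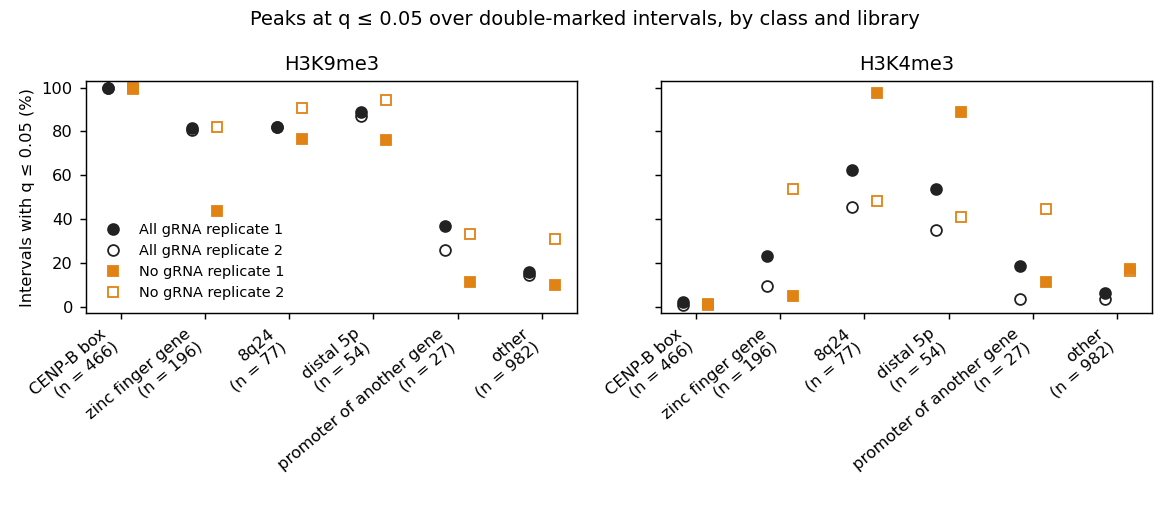
Share of double-marked intervals with a peak at a q-value of 0.05 or lower in each library (points, % of the class), for H3K9me3 (left) and H3K4me3 (right), by class. CENP-B box intervals sit near 100% for H3K9me3 and near 0% for H3K4me3, and the library labelled No gRNA H3K4me3 replicate 1 is the highest at 8q24 and distal 5p and the lowest in ZNF genes.

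ZNF genes were the class of genes most often reached, after clustered protocadherins, whose genes overlap. They were taken as protein-coding genes with symbols starting with ZNF, ZFP, ZSCAN, ZKSCAN or ZIM. They code for DNA-binding proteins, many of them with a KRAB domain. Of 555 ZNF genes, 151 (27.2%) had a double-marked interval in the body or within 2 kb of it. The same held for 561 of all 19111 protein-coding genes, 2.94%, and for 1027 of all 59578 annotated genes, 1.72%. The 151 genes were reached by 188 intervals, none of which held a CENP-B box. Of the 196 members of the ZNF class, 144 were on chromosome 19, where they made up 50.5% of the chromosome's intervals. A further 93 there held a CENP-B box.

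The overlap sat at ZNF gene starts more than at ZNF 3' ends, the part of the gene that codes for the zinc fingers. The largest group of the ZNF class, 91 of its 196 members (46.4%), lay in a gene body at neither end. A start lay within 1 kb of 64 intervals (3.55%) and a 3' end within 5 kb of 58 (3.22%), although the start windows make up 0.0373% and the 3' end windows 0.187% of the autosomes. Of H3K9me3-only intervals, 0.203% were at a ZNF start and 0.623% at a ZNF 3' end, and of H3K4me3-only intervals 0.594% and 0.388%. Both kinds of site could lie in one interval, since ZNF genes are crowded, and 17 intervals were at a start and at a 3' end. Intervals were found at 71 of 555 ZNF starts (12.8%) and at 43 of 18556 starts of other protein-coding genes (0.232%).

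**Figure D2:**
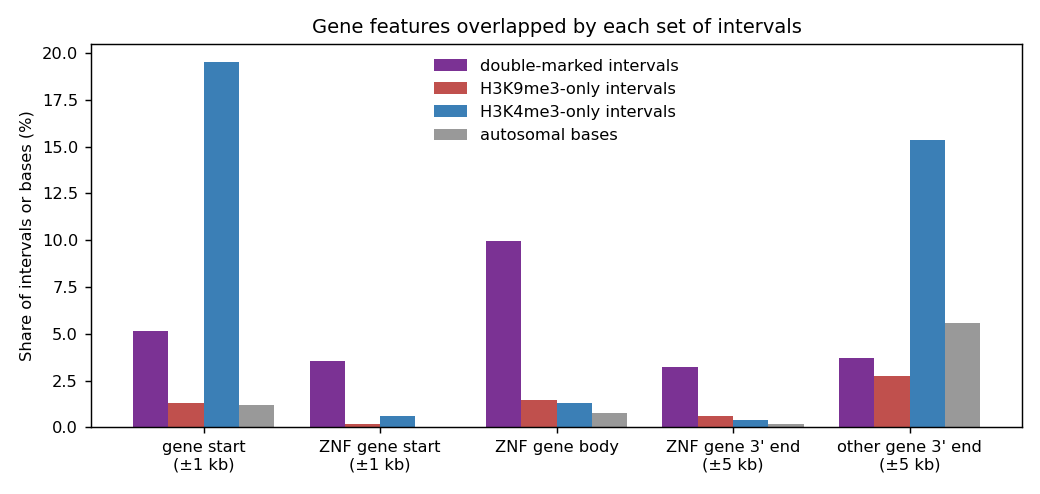
Share of intervals that overlap each gene feature (bars, %), for double-marked, H3K9me3-only and H3K4me3-only intervals, beside the share of autosomal bases in the feature. Double-marked intervals have the largest share in each of the 3 ZNF features, while H3K4me3-only intervals have the largest share at gene starts and at 3' ends of other genes.

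ZNF starts stood further from other starts in their share with H3K9me3 than in their share with H3K4me3. An interval of all 4 H3K4me3 libraries lay within 1 kb of 388 of the 555 ZNF starts (69.9%) and of 11015 other starts (59.4%). An interval of all 4 H3K9me3 libraries lay within 1 kb of 242 ZNF starts (43.6%) and of 814 other starts (4.39%). Intervals of both kinds reached 118 ZNF starts (21.3%) and 77 other starts (0.415%), whether or not they overlapped each other. At the 3' ends, H3K9me3 intervals reached 341 ZNF genes (61.4%), H3K4me3 intervals 194 and both 77. These shares describe the sets and were given no test, since the rule chose the intervals by the same peaks.

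Along the gene, double-marked intervals lay much as H3K4me3-only intervals did. Each double-marked interval lies inside an interval of both marks, and intervals that touch one are left out of the single-marked sets. The contrast with H3K9me3-only intervals can in part follow from this, and how much was not tested. Of 180 pairs of an interval midpoint and the ZNF gene around it, 47.2% were in the first 20% of the gene and 11.1% in the last 20%. H3K4me3-only intervals gave 46.6% and 11.1%. H3K9me3-only intervals gave 14.1% and 23.4%, with the median at 56.9% of the gene length against 23.7% for double-marked intervals. Of 73 pairs of an interval and a ZNF start within 1 kb, the interval covered the start in 47, lay wholly downstream in 19 and wholly upstream in 7.

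The ZNF members were marked by both antibodies in part of the libraries. A peak at a q-value of 0.05 or lower was present in all 4 H3K9me3 lists at 80 of the 196 (40.8%) and in at least 1 H3K4me3 list at 109 (55.6%). At the 64 members at a start, these counts were 32 and 57. At the 41 members at a 3' end and no start they were 14 and 11. The median H3K4me3 fold enrichment, taken over the mean of the 4 libraries, was 2.59 at the former and 1.92 at the latter, and the median H3K9me3 fold enrichment was 2.14 and 2.06. The library labelled No gRNA H3K4me3 replicate 2 carried much of the count. Without it, 52 of the 196 had such an H3K4me3 peak.

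ZNF274, whose protein binds ZNF gene 3' ends and recruits SETDB1, had the second longest interval at a promoter (chr19:58183055-58187899, 4845 bases). Its H3K9me3 fold enrichment was 2.33 and 2.26 (All gRNA) and 2.20 and 2.29 (No gRNA). Its H3K4me3 fold enrichment was 2.62 and 2.23 (All gRNA) and 2.67 and 2.27 (No gRNA), and the ranges of the conditions overlapped for both marks. ZNF544, with the same H3K9me3 values because it lay under the same peaks, had the second longest interval at a 3' end (chr19:58272758-58277627, 4870 bases). There the H3K4me3 fold enrichment was 2.19 and 2.21 (All gRNA) and 2.04 and 2.76 (No gRNA), with a q-value of 0.0281 in the last and of 0.278 to 0.346 in the other three. The longest at a ZNF 3' end, and at any promoter, was chr16:3302810-3308556 (5747 bases). It spans the starts of TIGD7 and ZNF75A and lies near the 3' end of ZNF263.

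The other long intervals at ZNF promoters were those of ZNF264, ZNF700 and ZNF586 on chromosome 19. At ZNF700 (chr19:11925886-11929820) the H3K4me3 fold enrichment was 3.14 and 2.76 (All gRNA) and 2.03 and 3.05 (No gRNA), the low value being the library that stood apart. At ZNF264 and ZNF586 that library was also the lowest, with 2.00 and 1.93. The remaining long intervals at 3' ends belonged to ZNF263, ZNF766, ZNF816-ZNF321P, ZNF765, ZNF57, ZNF669, ZNF320 and ZNF419. They measured between 2851 and 4535 bases. These genes are crowded, and 5 of these 8 intervals also lay at the start of a neighbouring or the same gene.

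8q24 and distal 5p held the intervals of lowest q-value, and these need not be the ones of highest fold enrichment. A peak at a q-value of 0.05 or lower was present in all 8 lists at 38 of the 1802 intervals (2.11%). Of these, 22 were at 8q24 and 12 at distal 5p. The other four were at ZNF121, ZNF566 and the pseudogenes NBEAP1 and FRG1EP. The 77 intervals of 8q24 spanned 125124758 to 128207434 of chromosome 8, and the nearest gene was PCAT1 for 40, PVT1 for 16 and POU5F1B for 10. PCAT1 and PVT1 are long noncoding RNA genes near MYC. The 54 intervals of distal 5p spanned 1633018 to 4090739 of chromosome 5 and included LSINCT5, IRX2 and its divergent transcript IRX2-DT.

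Fold enrichment at 8q24 and distal 5p was low for both marks. The exception was the library labelled No gRNA H3K4me3 replicate 1 at 8q24. At 8q24 the H3K9me3 median was 1.30 and 1.31 (All gRNA) and 1.33 and 1.30 (No gRNA), against 1.85 to 1.92 over all double-marked intervals. For H3K4me3 it was 1.65 and 1.56 (All gRNA) and 2.29 and 1.56 (No gRNA), against 1.93 to 2.01 over all. The library labelled No gRNA H3K4me3 replicate 1 was thus far above the other three, and a peak at a q-value of 0.05 or lower lay at 97.4% of the 77 intervals there against 45.5% to 62.3% in the others. Without it, 52 in place of 75 intervals had such a peak in any H3K4me3 list, and the count with such a peak in all remaining lists stayed at 22. At distal 5p the counts in any H3K4me3 list were 49 with that library and 31 without it, and the medians were 1.31 to 1.34 for H3K9me3 and 1.49 to 1.70 for H3K4me3.

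IRX2-DT (chr5:2753559-2757214) was the member whose weakest library had the lowest q-value, 2.71e-10. Its H3K9me3 fold enrichment was 1.68 and 1.58 (All gRNA) and 1.82 and 1.70 (No gRNA). Its H3K4me3 fold enrichment was 2.86 and 3.38 (All gRNA) and 3.31 and 4.84 (No gRNA). The conditions overlapped for H3K4me3 and lay apart for H3K9me3, where both No gRNA libraries were higher. Next was an interval in PVT1 (chr8:128178331-128182821), with 1.49 and 1.45 against 1.47 and 1.37 for H3K9me3. Its H3K4me3 values were 1.73 and 1.81 (All gRNA) and 2.61 and 1.93 (No gRNA), the highest being the library that stood apart, and the q-values of its 8 peaks were 3.17e-07 or lower. The POU5F1B interval (chr8:127392738-127402708, 9971 bases) was the second longest of all, and a 7115-base interval near PVT1 and a 7305-base interval near LSINCT5 were among the 5 longest.

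Among the 10 longest intervals, TRIO (chr5:14250920-14258337) had H3K4me3 fold enrichment between 2.38 and 2.98, and FAM27C on chromosome 9 between 1.92 and 2.67.

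Of 67 annotated autosomal genes from a list of 66 imprinted symbols, 3 (4.48%) had a double-marked interval in the body or within 2 kb, from 3 intervals, against the 2.94% of all protein-coding genes. Leaving out 1 H3K4me3 library gave 5 to 9 genes, with 9 without the library labelled No gRNA replicate 1. The 3 were SNRPN and SNURF, which share 1 interval, and ZNF331, which had 2. H3K9me3-only intervals reached 34 and H3K4me3-only intervals 37 of the 67. The SNURF interval (chr15:24955130-24956147) measured 1018 bases, just inside the limit, and lay where the maternally methylated control region of the Prader-Willi locus is known. Its H3K9me3 fold enrichment was 2.13 and 2.08 (All gRNA) and 1.95 and 1.87 (No gRNA). Its H3K4me3 fold enrichment was 2.51 and 2.29 (All gRNA) and 1.81 and 3.05 (No gRNA), with q-values from 0.0151 to 0.676. All gRNA was higher in both libraries for H3K9me3, and the conditions overlapped for H3K4me3. The ZNF331 intervals (chr19:53537413-53539116 and chr19:53544784-53545905) had no peak at a q-value of 0.05 or lower in any list. With a minimum of 500 bases, FAM50B, GRB10, IGF1R, IGF2R and RB1 were added, with longest intervals of 502 to 900 bases. The hexamer TGCCGC, which the imprinting factor ZFP57 binds when methylated, was held on either strand by 10.6% of double-marked intervals, 9.11% of H3K9me3-only intervals, 15.9% of H3K4me3-only intervals and 6.74% of the genome windows.

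Promoters of other genes took a small part. A start of any protein-coding gene lay within 1 kb of 93 intervals (5.16%), against 19.5% of H3K4me3-only and 1.30% of H3K9me3-only intervals. The 95% exact binomial interval around the 5.16% was 4.19% to 6.29%. It holds counting error only and takes the intervals as independent, although neighbours could share a peak. Of the 93, 64 were at a ZNF start. Genes of other families with a start within 1 kb of an interval included SNURF, THBD (the anticoagulant receptor thrombomodulin), TBX18 and LHX9 (transcription factors of development) and EPHA7 (an ephrin receptor), named here after the list was seen. A protein-coding gene body lay under 600 intervals (33.3%). This was between the 28.0% of H3K9me3-only and the 72.5% of H3K4me3-only intervals, and 43.4% of autosomal bases are in such bodies. Of the 1802, 1185 (65.8%) were outside protein-coding bodies, gene starts and ZNF 3' ends.

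Other gene classes were small, and counts in them are read beside the 2.94% of all protein-coding genes. None of the 10 EMT transcription factors, 39 HOX genes, 76 ribosomal protein genes or 55 keratins was reached. Of 18 genes of the H3K9 methylation machinery, ATF7IP, a partner of SETDB1, and ZNF274 were reached (11.1%). The 16 of 53 clustered protocadherins came from 3 intervals, since the PCDHA genes share their downstream exons (30.2%, in genes of a median 110 kb). OR2F1 of 415 olfactory receptors, 4 of 42 collagens (COL19A1, COL28A1, COL6A2 and COL8A1; 9.52%, median gene length 133 kb) and H2AC14 and H2BC14 of 69 replication histones were reached. The 982 intervals outside the named classes had a q-value of 0.05 or lower in all 4 H3K9me3 lists at 49 (4.99%) and in any H3K4me3 list at 296 (30.1%), or at 174 without the library labelled No gRNA H3K4me3 replicate 1.

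Taken over all members, the enrichment of each mark was close to that of its single-marked intervals. The median fold enrichment of H3K9me3 was 1.88 and 1.85 (All gRNA) and 1.92 and 1.89 (No gRNA), and that of H3K9me3-only intervals 1.79 to 1.84. For H3K4me3 it was 2.01 and 1.95 (All gRNA) and 1.93 and 1.97 (No gRNA), and in H3K4me3-only intervals 2.07 to 2.24. H3K9me3 was thus higher than in single-marked intervals in 4 of 4 libraries and H3K4me3 lower in 4 of 4. The classes were not alike in this. The 982 intervals outside the named classes had H3K9me3 medians of 1.78 and 1.73 (All gRNA) and 1.83 and 1.79 (No gRNA), below the H3K9me3-only medians in 4 of 4 libraries, while CENP-B box and ZNF intervals lay above 2. For H3K4me3, ZNF intervals had medians of 2.37 and 2.23 (All gRNA) and 1.88 and 2.69 (No gRNA). These lay above the H3K4me3-only medians except in No gRNA replicate 1, while CENP-B box intervals and the 982 lay below in 4 of 4 libraries. At 679 intervals (37.7%) all 4 H3K9me3 peaks had a q-value of 0.05 or lower, and at 57 (3.16%) all 4 H3K4me3 peaks did. At 373 intervals (20.7%) at least 1 list of each mark had such a peak, and at 445 (24.7%) no list had. The name double-marked thus rests, at most intervals, on peaks above that q-value in at least one mark.

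**Figure D3:**
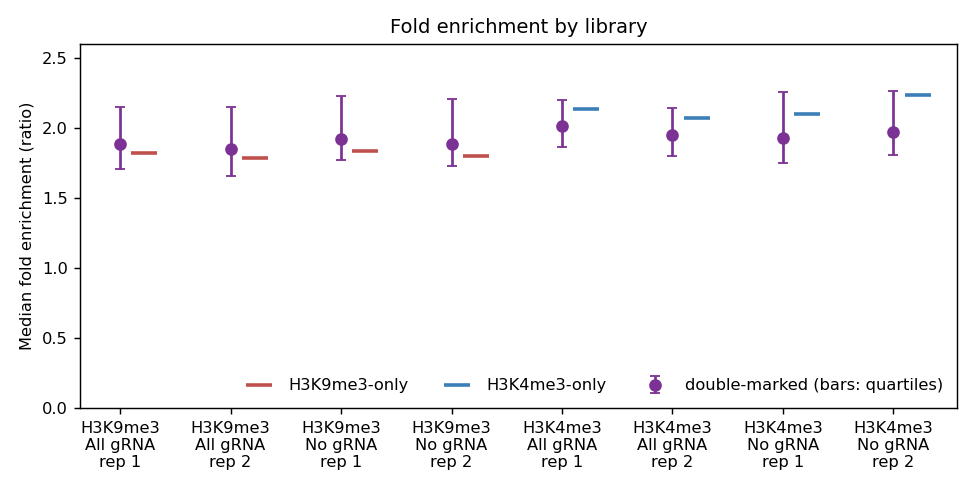
Median fold enrichment over the MACS2 background (ratio, axis from 0) of the 1802 double-marked intervals in each library (points, bars from the lower to the upper quartile), with the median of the single-marked intervals of the same mark (dashes). The points lie above the dashes in the 4 H3K9me3 libraries and below them in the 4 H3K4me3 libraries.

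Across the intervals the libraries of H3K9me3 resembled each other, with Pearson's r of log2 enrichment between 0.868 and 0.906 (n = 1802 intervals that share libraries and, in part, peaks). For H3K4me3, r was 0.655 to 0.732 among 3 libraries and 0.307 to 0.331 between these and the library labelled No gRNA H3K4me3 replicate 1. Between the marks, averaged over libraries, r was 0.05 and Spearman's rho -0.07. These are descriptions over intervals and carry no test.

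Enrichment at the double-marked intervals was then compared between libraries labelled All gRNA and libraries labelled No gRNA. Enrichment was divided by the library's median over all intervals of its mark, which are present in all 4 libraries, and the median over members was taken as log2. For H3K9me3 it was 0.05 and 0.05 (All gRNA) and 0.07 and 0.06 (No gRNA), a difference of -0.02 (2 against 2 libraries, two-sided exact permutation p = 0.333). For H3K4me3 it was -0.08 and -0.08 (All gRNA) and -0.12 and -0.17 (No gRNA), a difference of 0.06 (exact permutation p = 0.333). The groups did not overlap in either case, and 0.333 is the smallest p that 2 against 2 libraries allow. They overlapped for both marks over intervals of 2 kb or longer (exact permutation p = 0.667), and for H3K4me3 also without scaling (exact permutation p = 0.667) and with the mean over intervals (exact permutation p = 1). With the conditions that the file names give, the H3K4me3 difference was 0.03 (exact permutation p = 0.667). The groups then had to overlap, since the file names exchange a library between groups that were apart by label. The share of members with an H3K4me3 peak at a q-value of 0.05 or lower was 11.1% and 6.22% (All gRNA) and 17.1% and 19.0% (No gRNA), a difference of -9.43 percentage points (exact permutation p = 0.333). By the file names the shares were 11.1% and 17.1% with the guides and 6.22% and 19.0% without. The difference thus turned to 1.50 points (exact permutation p = 1). Overlap of the groups was again fixed by the exchange. Without the library labelled No gRNA H3K4me3 replicate 1 the differences by label were 0.09 and -10.4 percentage points. In H3K4me3-only intervals the share was 17.3% and 5.89% against 11.3% and 32.8%. For H3K9me3 the share was 50.1% and 49.1% against 41.6% and 58.8% (exact permutation p = 1).

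Few intervals had the conditions apart, meaning that the lowest library of one was at least 25% above the highest of the other. For H3K9me3 none (0%) was higher in All gRNA and 2 (0.111%) were lower, where the background over all 67681 H3K9me3 intervals was 0.0177% and 0.0207%. These 2 were in PCED1B and MBP, with scaled values of 0.922 and 0.874 against 1.24 and 1.22 at PCED1B, and 0.878 and 0.881 against 1.18 and 1.15 at MBP. For H3K4me3, 7 (0.388%) were higher and 5 (0.277%) lower in All gRNA, where the background over all 49736 H3K4me3 intervals was 0.221% and 0.607%. These counts moved with the setting. They were 28 higher and 76 lower without the library labelled No gRNA H3K4me3 replicate 1, 240 and 104 on -log10 q, and 8 and 11 by the file names. None of the 7 or 5 is among the 8 and 11, since the file names move a library of each label to the other side. The background was not counted under these settings, so these counts cannot be set against all H3K4me3 intervals. Of the 7, 5 held a CENP-B box and 2 were in ZNF genes. ZNF266 had the widest gap of the 7, with 1.26 and 1.42 (All gRNA) and 0.908 and 0.746 (No gRNA). The 5 lower ones were SH3BP4, the H2AC14 and H2BC14 promoters, SOD2, TMTC1 and LIMS1. At H2AC14 the values were 1.02 and 1.06 (All gRNA) and 1.47 and 1.60 (No gRNA). No member reached a gap of 1.5 times.

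ZEB1 itself, the gene the guides target, was not double-marked. No double-marked interval lay in its body or within 10 kb, and the nearest was 323 kb away. H3K9me3 peaks covered 79.4% and 82.0% of the 20 kb around its start with the guides, and 4.57% and 1.33% without them. For H3K4me3, the libraries without a peak within 1 kb of the start are those that the file names call All gRNA, and the libraries covered wholly are those they call empty vector. Membership required a peak in the No gRNA libraries too, so a site marked by H3K9me3 in All gRNA alone could not enter.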

How the data were processed

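Native ChIP-seq peak lists of 8 SUM159 libraries were analysed. According to the methods, the authors trimmed reads with fastp, aligned them to hg38 with bowtie2, removed duplicates and an ENCODE exclusion list, and called peaks with MACS2, deposited as 1 broad peak list per library. The submitters' processing notes instead name Trimmomatic 0.33, Bowtie 1.1.2 and MACS2 2.1.0. Whether input served as control is not given in the sources used here. Input and IgG libraries were not analysed here. For every peak the authors deposited an integer score, a fold ratio over background, and p-value and q-value as −log10, so MACS2 background settings enter every value.

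Intervals covered by all 8 lists were merged (python 3.11.15, numpy 2.4.6). The functions that form intervals, take their values and call conditions apart were checked on simulated intervals. Per interval, the base-weighted mean fold and the lowest q-value of the overlapping peaks were taken. Groups and replicate numbers came from the labels. Genes were those of GENCODE release 44, and ZNF genes were matched by symbol. Groups of 2 libraries were compared by exact permutation over 6 labellings.

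The members, classes, motifs and gene lists were chosen with earlier results of these data known. Named intervals were the 10 longest, the 10 of lowest q-value, all imprinted ones, the 10 longest at ZNF 3' ends, the 5 longest at promoters, the shortest, and up to 5 per mark and direction with conditions apart. The longest interval is not reported here.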

Additional observations from a re-analysis of the deposited data

Results flagged for a closer look

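Chromosome X was outside the rule. Built in the same way from the 8 lists, it held 138 double-marked intervals of 1 kb or longer, which were not described further. They were listed because the data lie outside the autosomal measurement, and no control sample gives a level to set them against.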

How the results depend on the processing

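With a q-value of 0.05 or lower required, 38 intervals remained, of which 2.63% were at a promoter and 0% at a ZNF 3' end, with 0 imprinted genes, and a move of 1 Mb gave 0.526 times as many. With a minimum of 500 bases the values were 5204 intervals, 3.59%, 2.09% and 8 genes. With 2 kb they were 339, 10.0%, 5.01% and 0 genes, and the move gave 4.77 times as many. A move of 100 kb gave 1.2525 times as many. Leaving out 1 library gave 2021 to 3936 intervals, 3.23% to 5.84% at promoters, 2.20% to 3.68% at ZNF 3' ends and 3 to 9 imprinted genes, and each H3K4me3 library left out raised the count over 1.5 times. Starts within 2 kb gave 6.71%, starts of all annotated genes 11.7%, and ZNF 3' ends within 2 kb and 10 kb 1.39% and 5.49%. Without CENP-B intervals, chosen after seeing the data, the shares were 6.96% and 4.34% of 1336. Joining gaps up to 200 bases changed nothing, since peaks of a list lay at least 831 bases apart.

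Conditions apart numbered 14 intervals. They were 0 at a ratio of 1.5, 630 on −log10 q, and 16 to 291 with 1 library left out, of which 23 without No gRNA H3K9me3 replicate 2, 51 and 60 without All gRNA H3K4me3 replicates 1 and 2, and 106 and 291 without the No gRNA ones. With 1 library on a side a gap is easier to reach. No background over all intervals was counted under these other settings. The H3K9me3 and H3K4me3 enrichment differences kept their sign under every alternative run. On fold enrichment they lay between -0.0351 and -0.0056 and between 0.0207 and 0.0882 on the log2 scale. The leave-one-out ranges were -0.0203 to -0.0182 and 0.0344 to 0.0882. With -log10 q in place of fold enrichment, another measure, they were -0.08 and 0.30. The H3K9me3 share at q 0.05 turned from -0.583 to 0.416 points at q 0.01, and ran from -9.21 (without No gRNA replicate 1) to 8.05 points (without No gRNA replicate 2) with 1 library left out. The H3K4me3 share ran from -11.9 to -6.99. With the H3K4me3 conditions that the file names give, an alternative chosen after seeing the data, it turned to 1.50 points, the enrichment difference was 0.03 and 21 intervals had conditions apart. The H3K4me3 intervals among these were not apart by label. A replicate block left the differences at -0.02, 0.06, -0.583 and -9.43 (exact sign permutation p = 0.5, 0.5, 1 and 0.5, the smallest being 0.5). Same-numbered libraries did not deviate together (r 0.02 for H3K9me3 and -0.005 for H3K4me3). The cause of these changes was not tested. Peak lists without reads limit every value to the caller's threshold.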
